A study of Mus musculus with 9 samples.

Results

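The Bcl2 family of apoptosis regulators was followed here as 10 genes: Bcl2, Bcl2l1, Bcl2l2, Mcl1, Bax, Bak1, Bad, Bid, Bcl2l11 and Bbc3. Its members were every probe set (a group of short probes against 1 transcript) that the platform annotation assigns to 1 gene symbol and that carries one of these symbols, 32 of 45037 probe sets after the array's own controls were set aside. They covered 9 of the 10 genes, since the annotation used here names no probe set for Bax, which was not analysed here. The study asked how vitamin A deficiency (VAD) alters the transcriptome of mouse spermatogonia, the dividing germ cells at the wall of the seminiferous tubule. It holds 3 groups of 3 arrays from adult Balb/C mice: mice fed without vitamin A for 18 weeks, mice fed so for 25 weeks, and mice fed normally. Germ cells from the testes of 2 mice per preparation were plated overnight and separated by sedimentation in albumin to a purity the labels give as high, and 100 ng of RNA went through a kit that copies it in 2 rounds. The labels do not say whether each array held its own preparation, nor how old the control mice were, so the p-values measure only the spread between these samples.

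Proteins of the Bcl2 family decide whether the outer membrane of the mitochondrion is opened, which releases cytochrome c and starts the caspase cascade. Bcl2, Bcl2l1 (Bcl-xL), Bcl2l2 (Bcl-w) and Mcl1 hold the membrane closed, Bax and Bak1 form the openings, and the BH3-only proteins Bad, Bid, Bcl2l11 (Bim) and Bbc3 (Puma) tip the balance by binding the first class or switching on the second. In the testis the family sets germ cell number, and male mice that lack Bcl2l2 or Bax are known to be sterile with failed spermatogenesis.

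Mcl1 (4 of 6 probe sets) and Bcl2l2 (1 of 4) are the members with a probe set that passed as higher at 25 weeks, and the sequences around their transcription starts are shown so that the 2 genes can be compared. They come from RefSeq on GRCm38.p6 and cover 300 bases around the start, on chr3:95658471-95658770 (plus strand) for Mcl1 and chr14:54883175-54883474 (plus strand) for Bcl2l2. Capitals mark each match, on either strand, to 6 letter strings: the GC box GGGCGG, the CCAAT box CCAAT, the TATA box TATAAA, the cyclic AMP response element TGACGTCA, the E-box CACGTG and the nuclear receptor half-site AGGTCA, of which none of the marked matches overlap.
Mcl1: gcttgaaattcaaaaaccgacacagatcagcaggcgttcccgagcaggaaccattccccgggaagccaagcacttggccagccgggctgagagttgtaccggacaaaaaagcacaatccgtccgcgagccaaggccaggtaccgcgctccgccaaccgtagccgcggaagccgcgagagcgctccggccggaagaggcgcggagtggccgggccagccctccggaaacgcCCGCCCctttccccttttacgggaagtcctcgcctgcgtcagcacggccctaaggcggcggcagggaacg
Bcl2l2: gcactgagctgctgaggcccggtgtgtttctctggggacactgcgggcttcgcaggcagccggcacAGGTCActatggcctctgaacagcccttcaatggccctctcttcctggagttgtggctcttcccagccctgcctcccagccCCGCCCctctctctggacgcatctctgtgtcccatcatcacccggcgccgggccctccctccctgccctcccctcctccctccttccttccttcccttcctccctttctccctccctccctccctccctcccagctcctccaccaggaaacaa
Each of these sequences holds 1 GC box, a string present in 35.7% of the 32851 sequences of this length in the reference. The Bcl2l2 sequence also holds 1 nuclear receptor half-site, a string found in 16.3% of them. That string occurs too in a sequence of Bcl2l1, a member with no call. The 300 bases of Mcl1 contain 33 CG dinucleotides and those of Bcl2l2 contain 9, where member sequences ran from 1 (Bcl2l1) to 44 (Bcl2). Retinoic acid receptors bind pairs of half-sites, and a single match of these letters is a description and no binding site.

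Values are microarray signals on the log2 scale after addition of a pseudocount of 3.26 and quantile normalization, which gives every array the same distribution, so each change is relative to the array as a whole. Probe sets with a mean below 3.39 on that scale, the 40th percentile, were not tested. Of the 32 member probe sets 17 passed, from 8 genes, and none of the 3 for Bid did. The nearest to the limit were probe sets of Bcl2, with means of 3.58 inside and 3.37 outside. The third array of the VAD 25-week group and that of the control group were dim, with trimmed mean signals of 23.2 and 22.9, against 55.2 to 185 on the other 7 arrays. This dim pair correlated at r = 0.899, and with the others at 0.824 to 0.851, while the others had values of 0.942 to 0.975. VAD 25-week replicates 1 and 2 were the brightest and alone carried strong signal from bacterial control transcripts. Differences were tested with limma over all 9 arrays with a term for the dim pair, and an adjusted p under 0.05 was the threshold. The model without that term called 0 of 27022 probe sets in every comparison (1958 at 18 weeks and 3209 at 25 weeks at an unadjusted p under 0.05).

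At 25 weeks of deficiency the survival gene Mcl1 was higher than in control in 4 of its 6 probe sets, by 1.52-fold to 1.99-fold. The survival gene Bcl2l2 also passed in 1 probe set, whose control mean lay under the limit on signal, so that its difference is given below only as a description. The BH3-only gene Bad was lower in 1 of its 2 probe sets. On the deposited scale that probe set was 0.55 higher, less than the median of 0.92 over all tested probe sets. In all, 5 of the 17 tested member probe sets rose and 1 fell, against 8.54% of all tested probe sets that rose and 6.32% that fell (14.9% in either direction). The 4 Mcl1 probe sets share 1 gene, so that 3 of 8 genes had any called probe set. With only the brightest probe set per gene (names ending in _x_at or _s_at used last), 17.1% of all 13616 tested genes were called. By that rule Mcl1 and Bad were not called (limma adjusted p = 0.655 and 0.428), and Bcl2l2 was. The Bcl2l2 probe set was among the 17 only through its level in the deficient groups, and that of Bcl2 only through its level in control. Counts over the 17 are therefore a description. The median log2 change of the 17 was 0.10, beside -0.01 over all tested probe sets. In the model without the term for the dim pair 0 of the 17 passed (2 at an unadjusted p under 0.05), and without those arrays 4 did. The split of 5 higher and 1 lower was 5 and 0 with median centring or with scaling before the pseudocount, and 9 and 0 on the deposited scale, on which the median of all tested probe sets lay at 0.92.

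Bcl2l2 was measured by probe set 1423572_at. It lay at 4.27, 4.63 and 4.46 on the log2 scale in the VAD 25-week arrays, against 2.11, 3.41 and 1.83 in the control arrays. Every 25-week array was above every control array. The control mean of 2.45 was below the limit of 3.39, and the probe set was tested only because the deficient groups, at means of 4.41 (18 weeks) and 4.45 (25 weeks), raised its overall mean. A probe set chosen in this way had to differ, so its fitted difference of 2.00 ± 0.41 (SE, n = 3 per group, limma adjusted p = 0.00924) is a description of these arrays. The deposited signals were low, at 39.0, 41.1 and 11.2 in the VAD 25-week arrays against 0.624, 5.43 and 0.251 in the control arrays, and the difference was 2.80 with a pseudocount of 1 and 0.92 with one of 16. Without the term for the dim pair the adjusted p was 0.143. The other 3 Bcl2l2 probe sets were below the limit, and a fit with no limit gave them -0.16, -0.35 and 0.42.

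Mcl1, which encodes a short-lived survival protein, had 6 tested probe sets. The clearest was 1437527_x_at, at 8.82, 8.77 and 9.40 in the VAD 25-week arrays against 7.97, 7.97 and 8.07 in the control arrays. These groups did not overlap, and the difference was 0.995 ± 0.14 (limma adjusted p = 0.00160). Probe set 1456243_x_at stood at 8.56, 8.58 and 6.99 in the VAD 25-week arrays against 7.84, 7.73 and 6.35 in control, a difference of 0.74 ± 0.14 (limma adjusted p = 0.00598). The low value in each group came from the dim pair, and within each kind of array the 25-week values were the higher ones.

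Probe set 1456381_x_at of Mcl1 showed the same layout with a deeper drop in the dim pair, at 8.50, 8.52 and 4.49 in the VAD 25-week arrays against 7.65, 7.63 and 4.27 in control (0.65 ± 0.17, limma adjusted p = 0.0245). Probe set 1416880_at had 7.65, 7.96 and 9.03 in the VAD 25-week arrays against 7.34, 7.34 and 8.16 in control (0.60 ± 0.16, limma adjusted p = 0.0249, or 0.0817 once the dim pair was left out). In that one the dim arrays were the high ones of their groups. The remaining Mcl1 probe sets, 1448503_at at 0.10 ± 0.14 and 1416881_at at 0.02 ± 0.15, did not pass, with 95% intervals of -0.19 to 0.40 and -0.32 to 0.35. The probe sets of this gene therefore differed in what they reported, and 3 of the 4 that rose have names ending in _x_at, which marks probes that can also bind other transcripts.

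Bad, whose protein neutralises Bcl2l1 and is held inactive by survival kinases, had 2 tested probe sets that did not behave alike. Probe set 1416583_at lay at 6.95, 7.02 and 7.05 in the VAD 25-week arrays and at 7.37, 7.33 and 7.78 in control. The groups did not overlap, and the difference was -0.49 ± 0.15 (limma adjusted p = 0.0495), but the adjusted p was 0.134 without the dim pair. On the deposited scale the difference was 0.55, where the median over all tested probe sets was 0.92. Probe set 1416582_a_at was at 7.90, 7.90 and 10.73 in the VAD 25-week arrays and at 7.42, 8.05 and 12.13 in control, a difference of -0.36 ± 0.28 (limma adjusted p = 0.428). Its dim arrays differed from the other 7 by 3.56 on average, beside a median of -0.18 over all tested probe sets.

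**Figure D1:**
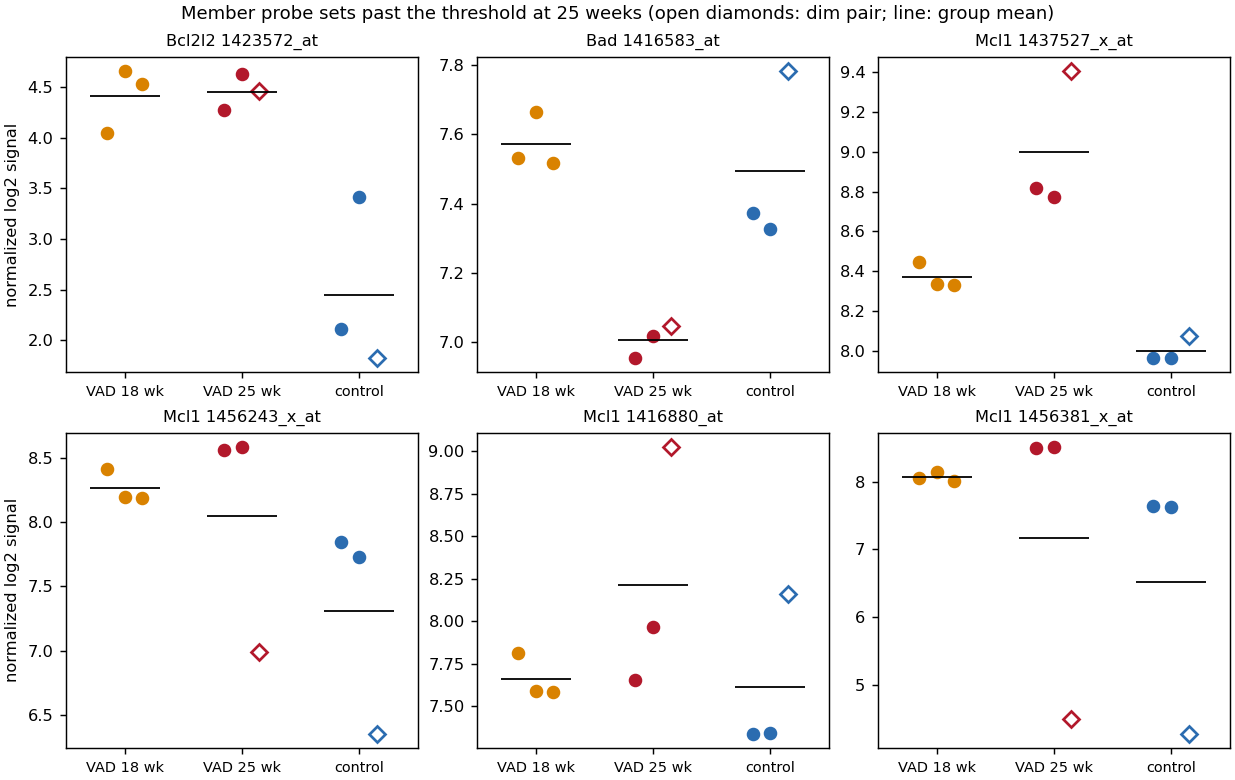
Normalized log2 signal (vertical axes, scaled for each panel) of the 6 member probe sets past the threshold at 25 weeks, in the arrays of VAD at 18 weeks, VAD at 25 weeks and control (3 each). Open diamonds are the dim pair, filled circles the other arrays and lines the group means; for Bcl2l2 and for Mcl1 1437527_x_at every 25-week array lies above every control array.

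The difference between VAD at 25 weeks and control was also read separately within the dim pair (1 array each) and outside it (2 arrays each). For Bcl2l2 it was 2.63 within the pair and 1.69 ± 0.45 outside. The 4 Mcl1 probe sets that rose were 0.22 to 1.33 higher within the pair and 0.47 to 0.87 higher outside. Bad 1416583_at was lower in both after normalization, with -0.73 and -0.36 ± 0.15. Its deposited 25-week signal was lower within the pair (46.2 against 69.2) and higher outside it (352 and 282 against 147 and 144). The 6 were called by a fit that averages these 2 differences, so a shared sign follows in part from the call and supports nothing further. Among probe sets that did not pass, Bak1 1418991_at was -2.69 within the pair and 0.30 outside, and Bcl2l11 1435448_at was 1.43 and -0.20.

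**Figure D2:**
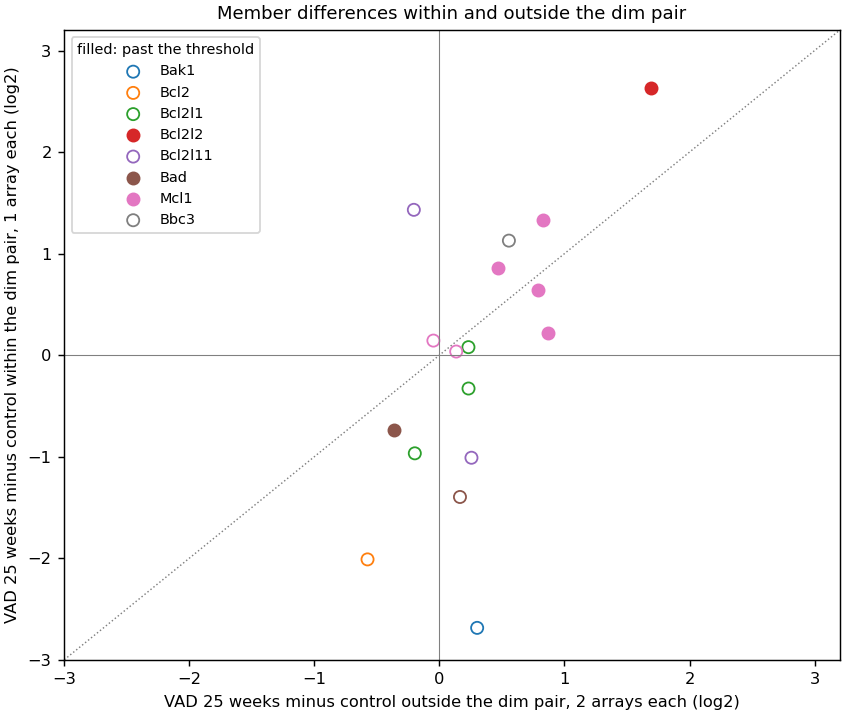
Difference between VAD at 25 weeks and control (log2) outside the dim pair, 2 arrays each (horizontal axis), and within it, 1 array each (vertical axis), for the 17 tested member probe sets coloured by gene. Filled points passed the threshold in a fit that averages both differences, the dotted line marks equal differences, and Bak1 lies at 0.30 and -2.69.

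The other survival genes of the family did not pass at 25 weeks. Bcl2l1, which is needed for the survival of primordial germ cells, was bright in 1420888_at, at 8.29, 8.27 and 10.08 in the VAD 25-week arrays against 8.24, 7.86 and 10.01 in control. The groups overlapped, and the difference was 0.18 ± 0.13 (limma adjusted p = 0.397, 95% interval -0.11 to 0.47). Its dimmer probe sets were at 0.05 ± 0.39 and -0.45 ± 0.43. Bcl2 itself was near the bottom of the array. Probe set 1422938_at of Bcl2 had 2.65, 4.00 and 2.95 in the VAD 25-week arrays against 4.12, 3.68 and 4.96 in control (-1.05 ± 0.56, limma adjusted p = 0.228). Its deposited signals never exceeded 22.9, and the other 4 Bcl2 probe sets were not tested.

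Of the proteins that open the mitochondrion, Bak1 in probe set 1418991_at lay at 4.52, 3.88 and 2.90 in the VAD 25-week arrays against 3.60, 4.20 and 5.59 in control. The ranges overlapped widely, and the difference of -0.69 ± 0.53 did not pass (limma adjusted p = 0.410). Among the BH3-only genes, Bcl2l11 in 1435448_at was at 4.41, 4.10 and 3.82 in the VAD 25-week arrays and at 3.92, 4.999 and 2.39 in control (0.34 ± 0.40, limma adjusted p = 0.610), with its other tested probe set at -0.17 ± 0.37. Bbc3, a target of p53, was at 4.17, 3.86 and 4.45 in the VAD 25-week arrays and at 2.51, 4.41 and 3.33 in control (0.75 ± 0.45, limma adjusted p = 0.293). The 95% intervals of -0.54 to 1.22 for Bcl2l11 and -0.24 to 1.73 for Bbc3 both include a 2-fold rise. Bid, which links death receptors to the mitochondrion, had deposited signals of 0.424 to 22.2 over its 3 probe sets. In a fit of all probe sets with no limit on signal, 0 of the 15 untested members passed at 25 weeks (0 below 0.05 before adjustment, lowest adjusted p 0.421).

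**Figure D3:**
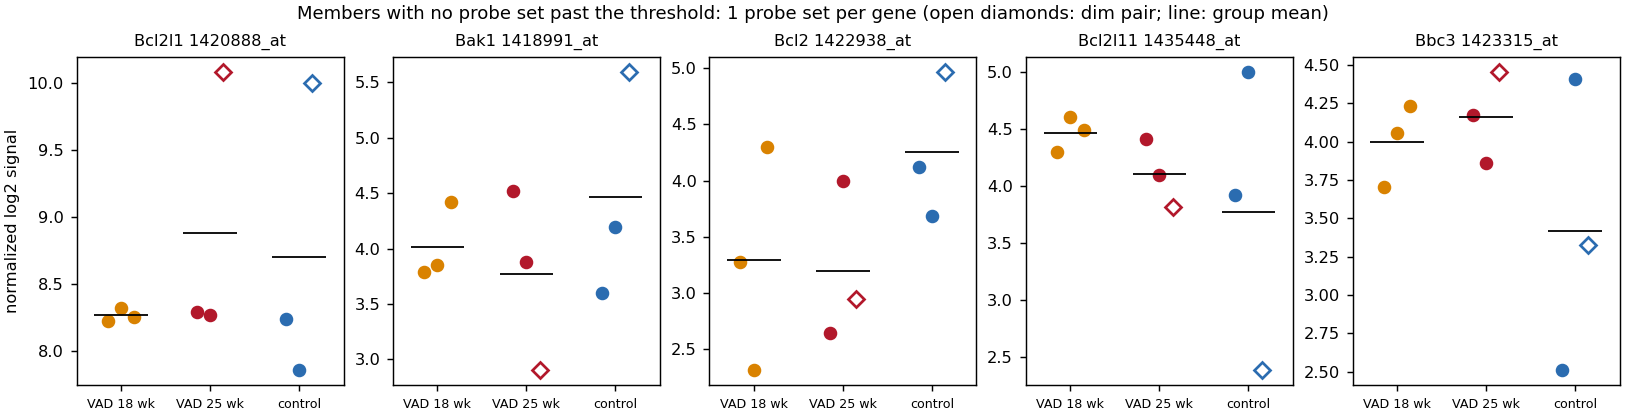
Normalized log2 signal (vertical axes, scaled for each panel) of 1 probe set for each tested member with none past the threshold, in the arrays of VAD at 18 weeks, VAD at 25 weeks and control (3 each). Open diamonds are the dim pair and lines the group means; the groups overlap in all 5 panels, and for Bcl2l1 both dim arrays lie near 10 while the other 7 lie between 7.86 and 8.32.

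At 18 weeks 0 of the 17 tested member probe sets passed, against 1.47% of all tested probe sets (1.33% higher and 0.133% lower). The lowest adjusted p was 0.0666 (limma). Before adjustment 7 of the 17 were below 0.05, beside 4459 of all 27022 tested probe sets. These 7 included Mcl1 probe sets of both signs. Bcl2l2 came nearest, at 4.05, 4.65 and 4.53 in the VAD 18-week arrays against 2.11, 3.41 and 1.83 in control. The difference was 1.81 ± 0.44 (limma adjusted p = 0.0666), again against a control mean under the limit on signal. The term for the dim pair is estimated from the control and 25-week arrays, so that the 25-week arrays enter the 18-week values.

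The 6 Mcl1 probe sets were mixed at 18 weeks. Probe set 1437527_x_at had 8.45, 8.34 and 8.33 in the VAD 18-week arrays, between its 25-week and control levels, with a difference from control of 0.49 ± 0.15 (limma adjusted p = 0.126). Probe set 1416881_at of Mcl1 was at 7.75, 7.82 and 8.21 in the VAD 18-week arrays against 8.29, 8.41 and 8.25 in control (-0.39 ± 0.16, limma adjusted p = 0.259). The other 4 lay between -0.11 and 0.46.

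Of Bcl2l1, the dim probe sets had VAD 18-week means of 3.11 and 2.77, below the limit on signal. Probe set 1420887_a_at had 2.90, 2.52 and 3.93 in the VAD 18-week arrays against 4.00, 4.42 and 5.08 in control (-1.19 ± 0.42, limma adjusted p = 0.182), and 1426191_a_at was at -1.17 ± 0.45 (limma adjusted p = 0.227). The bright Bcl2l1 probe set stayed at 8.23, 8.32 and 8.26 in the VAD 18-week arrays, with a difference from control of 0.19 ± 0.14. The 2 dim probe sets and the bright one thus gave different values for the same gene, and no test was made between them. Bad (0.16 and -0.05), Bak1 (-0.38), Bcl2 (-0.84), Bcl2l11 (0.28 and 0.01) and Bbc3 (0.63) were also short of the threshold. The Bcl2 value comes from a probe set tested only through its control level.

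**Figure D4:**
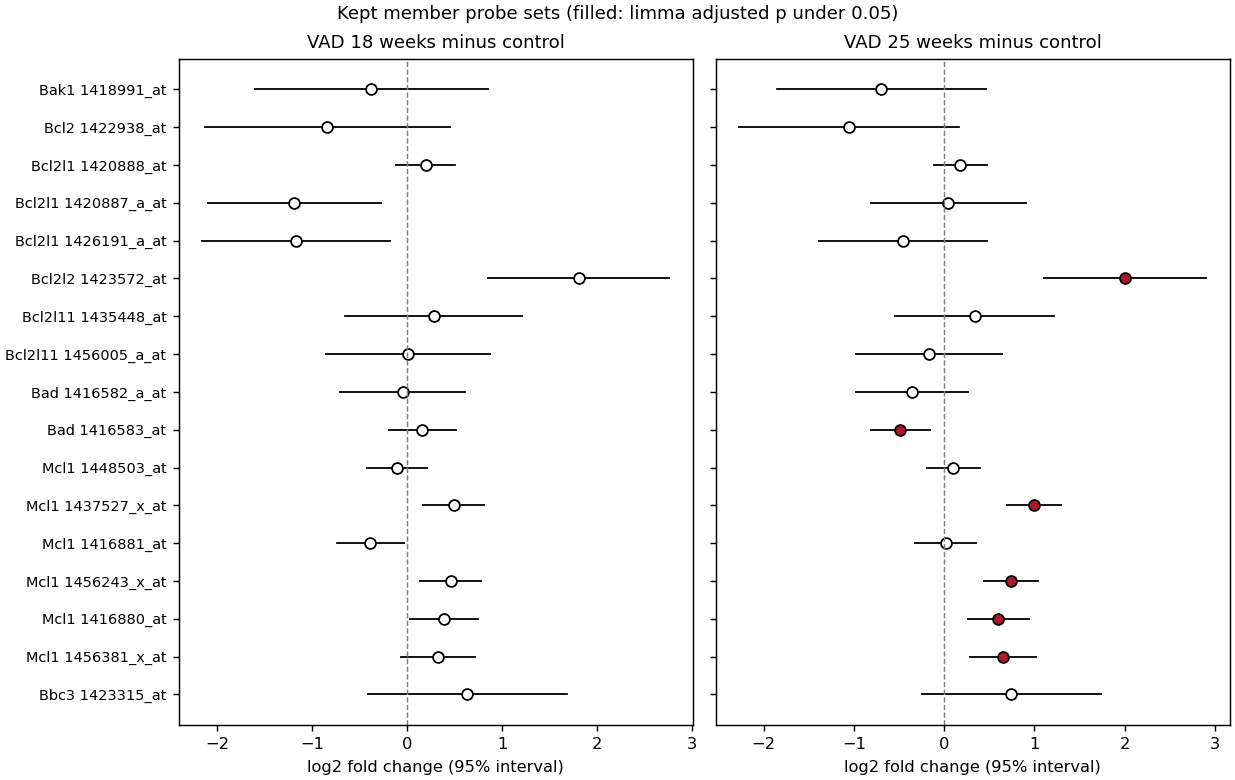
Log2 fold change against control (horizontal axes) of the 17 tested member probe sets at 18 weeks (left) and 25 weeks (right) of the deficient diet, with 95% intervals from limma. Filled points passed the threshold; there are 0 at 18 weeks and 6 at 25 weeks, among which Bcl2l2, with a control mean under the limit on signal, lies farthest right at 2.00.

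Set directly against each other, VAD at 25 weeks and VAD at 18 weeks differed in 0 of the 17 member probe sets (limma, 4 below 0.05 before adjustment, and 0.180 as the lowest adjusted p), and the share over all tested probe sets was 0 as well (3119 at an unadjusted p under 0.05). Over all probe sets that count was 453 without the dim pair, 1550 with array weights and 1783 on the deposited scale. Bcl2l2 was 0.20 ± 0.44 apart (25 weeks minus 18 weeks), with a 95% interval of -0.76 to 1.15. Mcl1 1437527_x_at was 0.51 ± 0.15 apart (limma adjusted p = 0.221), and its groups did not overlap. Bad 1416583_at, at 6.95, 7.02 and 7.05 in the VAD 25-week arrays and 7.53, 7.67 and 7.52 in the VAD 18-week arrays, differed by -0.65 ± 0.16 (limma adjusted p = 0.180). A call at 25 weeks and none at 18 weeks is therefore not a shown difference between the times for any member.

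Apoptosis genes around the family were read from 6 lists chosen by role, with 1 probe set per gene. At 25 weeks 7 of 83 tested genes rose and 0 fell (8 and 3 once the dim pair was left out), against 17.1% of all 13616 tested genes called in either direction (9.08% higher, 8.01% lower). At 18 weeks 1 rose and 0 fell, against 1.52% (1.37% higher, 0.147% lower). The median log2 change of the 83 was 0.06 at 25 weeks, beside -0.03 over all tested genes.

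A list of 12 tested genes held other Bcl2 family genes together with the Bnip genes, which are named for interaction with Bcl2. Of these, 2 rose at 25 weeks, both Bnip genes, and the list median was -0.08. Bnip3, a mitochondrial protein induced by low oxygen that takes part in mitophagy, was at 6.91, 6.60 and 7.004 in the VAD 25-week arrays against 5.98, 6.06 and 4.44 in control. Its groups did not overlap, and the difference was 1.34 ± 0.32 (limma adjusted p = 0.0185), or 0.73 without the dim pair. Bnip2 rose by 0.58 ± 0.16 (limma adjusted p = 0.0314, or 0.0758 once the dim pair was left out) in 1 of its 4 tested probe sets. At 18 weeks 0 of the 12 passed (limma, 1 at an unadjusted p under 0.05), with Bnip3 at 0.78.

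Of 10 tested genes of the caspases and the apoptosome, the complex that activates them, 1 rose at 25 weeks. That was Cycs, which encodes cytochrome c, the protein released when the membrane opens, with 8.34, 8.45 and 7.68 in the VAD 25-week arrays against 7.74, 7.64 and 6.44 in control. The ranges overlapped only through the dim 25-week array, and the difference was 0.88 ± 0.27 (limma adjusted p = 0.0498, or 0.159 without the pair), with 2 of its 3 tested probe sets called. Apaf1, the scaffold of the apoptosome, was at 0.30 ± 0.35, and Casp9, the caspase it activates, at 0.61 ± 0.29 (limma adjusted p = 0.180). Outside the dim pair Casp9 was 1.01 higher at 18 weeks and 1.01 higher at 25 weeks (limma adjusted p = 0.0367 and 0.0217), and within the pair it was at -0.17. Of 10 inhibitors of apoptosis and their antagonists and 10 genes of death receptor signalling, 0 passed at either time (limma, 4 and 0 at an unadjusted p under 0.05 at 25 weeks, 1 and 0 at 18 weeks). The smallest adjusted p among these at 25 weeks was 0.0570, for Birc5 (-0.72 ± 0.23, and 0.0150 once the dim pair was left out), which encodes survivin, an inhibitor of apoptosis that also acts in cell division.

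Of 17 genes of the p53 pathway, 3 rose at 25 weeks and 0 fell, with a list median of 0.49. Trp53inp1, a stress-induced partner of p53, was at 7.70, 7.72 and 7.88 in the VAD 25-week arrays against 6.30, 6.73 and 5.80 in control. Its groups were well apart, with a difference of 1.49 ± 0.21 (limma adjusted p = 0.00159, or 0.112 without the term for the dim pair), in 1 of its 2 tested probe sets. At 18 weeks Trp53inp1 stood at 0.99 ± 0.22 (limma adjusted p = 0.0509). Ei24, a p53-induced gene, rose by 1.13 ± 0.27 at 25 weeks (limma adjusted p = 0.0176), or 0.68 without the dim pair. Trp53bp1, a DNA damage protein that binds p53, rose by 0.77 ± 0.14 at 25 weeks (limma adjusted p = 0.00484) and by 0.77 ± 0.14 at 18 weeks (limma adjusted p = 0.0294), in 1 of its 4 tested probe sets each time. Without the term for the dim pair the 18-week difference was 0.04 (limma adjusted p = 0.991), the 3 control arrays standing at 8.83, 8.73 and 11.15 with the dim one last, and the 18-week call held in 9 of 20 alternatives.

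Of 24 genes of survival signalling and Bcl2 partners, 1 rose at 25 weeks, Pik3ca, a catalytic subunit of phosphoinositide kinase upstream of Akt (0.73 ± 0.20, limma adjusted p = 0.0303, or 0.0853 once the dim pair was left out, with 2 of its 5 tested probe sets called). It lay at 6.69, 6.61 and 6.55 in the VAD 25-week arrays against 6.11, 6.15 and 5.41 in control. The list median was -0.11, and 0 of the 24 passed at 18 weeks (limma, 1 at an unadjusted p under 0.05).

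**Figure D5:**
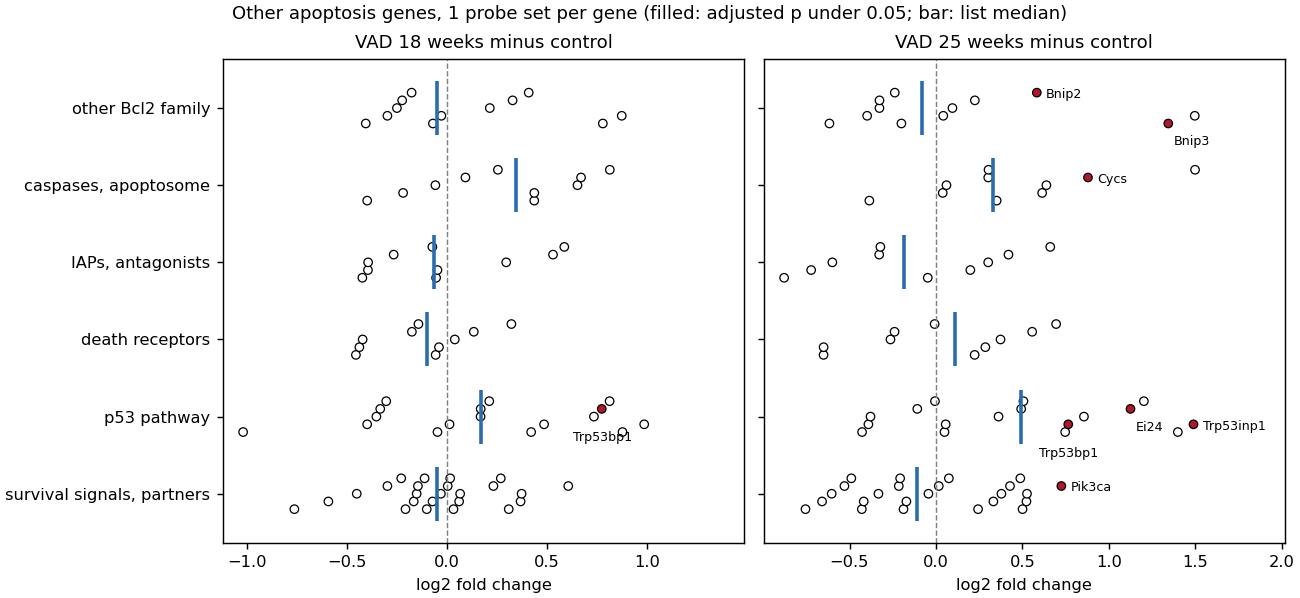
Log2 fold change against control (horizontal axes) of 83 apoptosis genes in 6 lists, 1 probe set each, at 18 weeks (left) and 25 weeks (right) of the deficient diet; the vertical offset within a list only separates points. Filled, named points passed the threshold, 1 at 18 weeks and 7 at 25 weeks, all to the right of 0, and blue bars mark list medians.

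The preparations also differed in markers of other cells. Over all tested genes 9.08% rose and 8.01% fell at 25 weeks, and 1.37% rose and 0.147% fell at 18 weeks. Of 17 tested Sertoli cell markers (the somatic nurse cells of the tubule), 12 rose at 25 weeks and 7 at 18 weeks, with medians of 1.51 and 1.498. Their summed normalized signal was 1112 to 2907 in the VAD 18-week arrays and 1461 to 2193 in the VAD 25-week arrays, against 525 to 607 in control. Of 8 leukocyte markers 5 rose at 25 weeks and 0 at 18 weeks, with summed signals of 313 to 454 at 25 weeks and 185 to 267 at 18 weeks against 180 to 302 in control, and of 6 Leydig cell markers 1 rose at 25 weeks and 0 at 18 weeks (257 to 739 in the VAD 18-week arrays and 397 to 473 in the VAD 25-week arrays, against 201 to 257 in control). Of 6 tested peritubular and endothelial markers 0 passed at either time, with medians of -0.22 at 18 weeks and 0.13 at 25 weeks. No probe set was listed at 0 on any array. The part of these other cells in the changes of Mcl1, Bcl2l2 and the other genes was not tested. In bulk samples more or fewer cells of a type and more or less RNA per cell cannot be told apart. Of the labelled cell type, 9 of 14 markers of undifferentiated and 10 of 10 of differentiating spermatogonia passed the limit on signal, as did 14 of 14 spermatid genes. In the control arrays summed signals were 455 to 520 for undifferentiated and 955 to 1930 for differentiating spermatogonia. They were 23083 to 28639 for pachytene spermatocytes and 10296 to 24373 for spermatids. These lists hold different genes, so the sums are not shares of cells, but member values cannot be assigned to spermatogonia alone. At 25 weeks 1 of the 9 undifferentiated markers rose and 0 fell, 2 of the 10 differentiating markers rose and 1 fell, 5 of 10 markers of pachytene spermatocytes rose and 2 fell, and 0 spermatid genes rose and 4 fell (median -0.44). At 18 weeks these lists had 1, 0, 3 and 0 rises and 0 falls.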

How the data were processed

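The deposited values are linear intensity values for each probe set, made by the authors with MAS5 from CEL files, per the submitters' processing notes and the labels' design text. The MAS5 version, scaling target and genome build are not stated in those sources. The platform table names 1 gene for 34945 probe sets and more than 1 for 932, and leaves 9160 unnamed here; genes were taken from the first kind. The 64 control probe sets were left out. No 2 arrays held identical values.

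Signals were transformed as log2(signal + 3.26), the pseudocount being the 25th percentile of all signals, and quantile normalized. A mean below the 40th percentile removed a probe set, which left 27022. A linear model (limma 3.58.1, R 4.3.3, moderated with a variance trend) was fitted over all 9 arrays with group and a term for the dim pair, which are those with a trimmed mean signal less than 0.5 of that of the median array, 2% being trimmed at both ends. Residual degrees of freedom were 5. P-values were adjusted by Benjamini-Hochberg over all kept probe sets per comparison, with a threshold of 0.05. The fit was also run on simulated data built with the same term for the dim pair, which cannot show whether that term suits these arrays. The number of arrays limits precision.

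The members, lists, term for the dim pair and tests were chosen with earlier results of these data known. Per-array values are given for called member probe sets and, for a member with none, for its brightest kept one, with names ending in _x_at or _s_at used last. Other genes are represented by their brightest kept probe set, and those called are named, up to 5 per list. Casp9 and Apaf1 were named in any case. Replicate numbers did not pair the arrays: the correlations of deviations from the group means between same-numbered arrays went down to -0.005. They were 0.519 to 0.690 between VAD 25 weeks and control, where differently numbered arrays outside the dim pair had 0.529 and 0.540.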

Additional observations from a re-analysis of the deposited data

Results flagged for a closer look

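Bacterial poly-A control probe sets, which the comparisons do not use, had a median signal 24.0 and 29.2 times that of the median array in VAD 25-week replicates 1 and 2, while the 3 control arrays stood at 0.731, 0.918 and 0.766 times it. These are the arrays outside the dim pair on which the 25-week values of Mcl1, Bcl2l2 and Bad rest, and outside that pair the handling of those arrays and the diet cannot be told apart. Groups of 3 arrays were too small for a test of single outlying arrays, and 0 member probe sets differed between 25 and 18 weeks (limma, 4 at an unadjusted p under 0.05).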

How the results depend on the processing

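The 25-week count of 6 member probe sets was 0 with no block for the dim pair, 3 with no variance trend, 3 with the replicate block and 3 to 5 when single arrays were left out, with 3 without control replicate 1 and 3 without VAD 25-week replicate 2. The 18-week count of 0 was 1 with scaling before the pseudocount, and 0 to 0 when single arrays were left out. The comparison of 25 with 18 weeks, at 0, gave 3 on the deposited scale, 3 with array weights and 0 to 0 with single arrays left out. Of the other apoptosis genes, 7 at 25 weeks became 39 on the deposited scale, 0 with no block, 11 without the dim pair, 19 with array weights and 3 with no variance trend, and 4 to 11 with single arrays left out (4 without control replicate 2 or VAD 25-week replicate 1, 11 without control replicate 3 or VAD 18-week replicate 1). Their 18-week count of 1 became 0 on the deposited scale, with no block, with no variance trend or with the replicate block, 2 with a pseudocount of 16, 3 with scaling before the pseudocount or array weights, 4 without the dim pair, and 0 to 4 with single arrays left out. The cause of these shifts was not tested. Bad 1416583_at turned to 0.55 on the deposited scale at 25 weeks, below the median of 0.92 over all tested probe sets there, and passed in 3 of 20 alternatives. Mcl1 1437527_x_at and Mcl1 1456243_x_at each passed in 19 of 20, all but the one with no block, Mcl1 1456381_x_at in 13 and Mcl1 1416880_at in 11. Bcl2l2 1423572_at also passed in all but the one with no block. It was tested only through its level in the deficient groups, so this is a description and no support. Over all tested probe sets, 4017 calls at 25 weeks became 10471 on the deposited scale, 6592 with array weights, 2390 with no variance trend, 2599 with the replicate block and 0 with no block. At 18 weeks 396 became 134, 1086, 0, 19 and 0 under the same settings, 887 with scaling before the pseudocount and 1078 without the dim pair. The 0 calls between 25 and 18 weeks became 1783 on the deposited scale, 1550 with array weights and 453 without the dim pair. With single arrays left out, the background ran from 1788 (without VAD 25-week replicate 2) to 4159 at 25 weeks, from 37 (without control replicate 1) to 1031 at 18 weeks, and from 0 to 395 between the times. Between VAD 25 weeks and control, deviations from the group means went together in the dim pair (r = 0.690) and among the other arrays. Outside the dim pair, same-numbered arrays had r = 0.525 and 0.519, and differently numbered ones 0.529 and 0.540. Same-numbered arrays did not deviate together with VAD 18 weeks. The replicate block is therefore a setting only and not a pairing. Low signals of Bcl2, Bid, Bak1 and Bbc3 limit what could be seen.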
